A study of Arabidopsis thaliana with 15 samples.

Results

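The genes described here encode the subunits of the 26S proteasome of Arabidopsis thaliana. These 54 genes were chosen by their AGI codes from a list of subunit names. No measured value entered that rule, but earlier results of these data were known when the list was chosen. The 54 genes comprise 24 of the 20S core particle (13 for alpha and 11 for beta subunits) and 30 of the 19S regulatory particle (11 RPT and 19 RPN genes). They encode 32 subunits, of which 22 have a pair of genes. Of the 54 genes, 53 had a row among the 34307 loci of the deposited table, and 52 reached the mean normalized read count of 10 required for testing, as did 17595 loci in all. PBC2 (AT1G77440) was not analysed here. RPN12b, listed beside RPN12a as a lid subunit gene, had a mean of 6.55 and was not tested. Where a code had several rows (PBB1, PBD2 and RPN3b), the row with the largest sum was used.

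RNA was sequenced from leaves of 21-day-old Col-0 plants grown at 22 °C under a 16-h photoperiod. There were 3 WT libraries, and each of 4 types of ubc22 mutant plants gave another 3. UBC22 encodes a ubiquitin-conjugating enzyme. The mutant plants descended from 1 parent and differed in looks: Type I resembled WT, Type II had broader and rounder leaves, Type III had pale, narrow and long leaves, and Type IV was small with serrated leaves. The labels name neither the allele nor the number of plants in a library, and no agent was applied to any group. The p-values therefore rest on the spread among the 3 libraries of each group, which may in part be technical.

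The 26S proteasome degrades proteins that carry ubiquitin chains. Its core is a barrel of stacked rings in which alpha subunits form the gate and beta subunits line the chamber, where β1, β2 and β5 carry the proteolytic sites. The regulatory particle holds a ring of RPT ATPases, which unfold substrates and thread them into the core, and RPN subunits, which serve as scaffolds, ubiquitin receptors and the lid with its deubiquitylase. Every particle needs its subunits in fixed proportions, and in Arabidopsis most subunits come from a pair of paralogous genes.

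The libraries held 8865955 to 13138977 recovered reads. UBC22 stood at 663, 696 and 696 normalized reads in WT and between 227 and 378 in the 12 mutant libraries, with no overlap between WT and any type, although its reads cannot be told apart from those of the overlapping AT5G05070 on the opposite strand. The leaf genes RBCS1A, CAB1, CA1 and RCA had means of 43800 to 243085, the root gene PYK10 621, the flower genes AG and AP3 11.1 and 7.23, and the seed genes CRA1 and SESA4 1.01 and 0. PYK10 ranged from a mean of 342 in Type IV to 1060 in Type III. Against WT, CA1 was lower in Types III and IV by 0.41 and 0.74 on the log2 scale (limma, adjusted p = 0.0418 and 0.00259). RCA was lower there by 0.61 and 0.57 (limma, adjusted p = 0.00519 and 0.0117). RBCS1A and CAB1 were not called against WT in any type. AG, of low level, was higher in Type III by 2.08 (limma, adjusted p = 0.00374). The part of these marker differences in the results below was not tested. With the proteasome genes left out, 1 chromosome stood apart in each of Types II to IV: the median log2 fold change of its genes against WT, minus that of the other nuclear chromosomes, was 0.57 ± 0.029 (SD, n = 3) for chromosome 2 in Type II, 0.58 ± 0.0055 for chromosome 3 in Type III and −0.47 ± 0.11 for chromosome 4 in Type IV. Type IV replicate 3 differed from its group, with −0.35 against −0.54 and −0.54. In Type I no chromosome reached a size of 0.2. Below, a chromosome that passes 0.2 is called the shifted chromosome of its type; tested proteasome genes numbered 16, 6, 9, 8 and 13 on chromosomes 1 to 5.

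In Type IV 26 of the 52 tested proteasome genes were higher than in WT and 5 were lower (limma with Benjamini-Hochberg adjustment, adjusted p under 0.05), against a background of 16% of all tested loci called higher and 17% lower. In these bulk leaf libraries, fewer cells of a type and less RNA per cell cannot be told apart. In Type III 17 were higher and 3 lower, against backgrounds of 24% and 23.6%, and in Type II 6 were higher and 1 lower, against 10.2% and 4.38%. The share of members called higher in Type II therefore lay near that of all loci, as 6 of 52 is 11.5%. The 52 members had a median log2 fold change of 0.28 (Type IV), 0.13 (Type III), −0.12 (Type II) and −0.08 (Type I), while the median of all tested loci lay between −0.02 and 0.001. In Type I limma called 0 members, as did edgeR and DESeq2. Limma called 0.0455% of all loci higher and 0.0284% lower, while DESeq2 called 146 loci higher and 57 lower. In limma 10 of the 52 members had an unadjusted p under 0.05, 1 higher and 9 lower. Of all 17595 tested loci, 2549 did so.

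Without 1 library the higher members ranged from 20 to 26 in Type IV, from 13 to 20 in Type III and stayed at 6 in Type II. The 5 lower members of Type IV fell to 3, 1 and 2 without WT replicates 1, 2 and 3 and to 1 and 2 without Type IV replicates 1 and 2. The 3 lower members of Type III became 1 without WT replicate 2 or without Type III replicate 1 or 3. Scaling to library totals gave 26 higher and 1 lower in Type IV, 12 and 8 in Type III, and 7 and 0 in Type II. Scaling from the chromosomes not shifted in any type gave 20 and 6, 25 and 0, and 8 and 0. Centring each library per chromosome gave 23 and 1, 19 and 0, and 1 and 0.

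**Figure D1:**
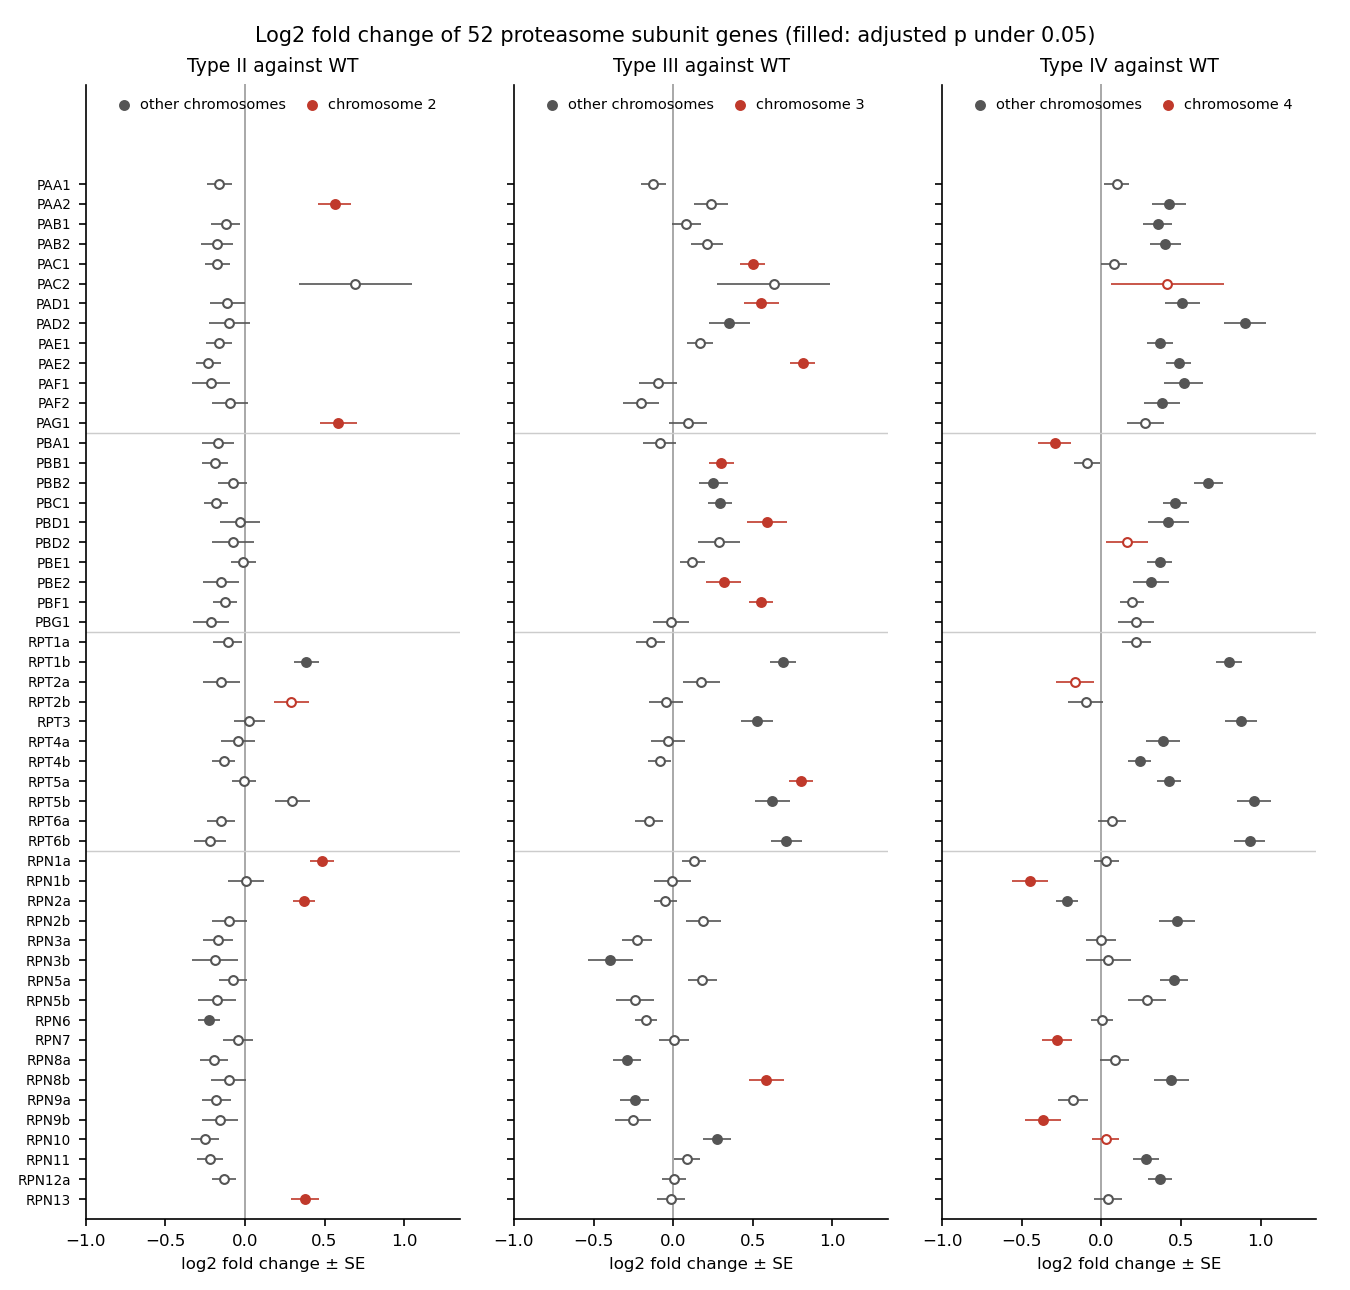
Log2 fold change (± SE, limma) of the 52 tested proteasome genes against WT in Types II, III and IV, one row per gene in the order alpha, beta, RPT and RPN; filled points have an adjusted p under 0.05 and red marks genes on the shifted chromosome. In Type IV 26 filled points lie above 0, all of them off chromosome 4, and the 9 red points of Type III are all filled and above 0.

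In WT leaves the members differed widely in level. Per kb of annotated exon, the WT means ran from 13.3 ± 3.36 (SD, n = 3) normalized reads for PAC2, a gene for α3, to 1053 ± 30.0 for PBA1, the only gene for the proteolytic subunit β1, with a median of 403. PBF1 (β6) followed with 901 ± 19.2 and RPT5a with 848 ± 46.3 normalized reads per kb. At the other end, RPN8b had 90.4 ± 13.1 and RPN5b 119 ± 16.7. In 19 tested members the gene model overlaps another annotated gene, and since the kit marks no strand, reads of opposite genes cannot be told apart.

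Among the 13 genes of the alpha ring, 9 were higher in Type IV and none lower, beside 16% and 17% of all tested loci. Off chromosome 4, 9 of 12 alpha genes were higher, where 18.3% of all genes were. All 13 had a fold change above 0, from 0.08 to 0.90 on the log2 scale. PAD2 (AT5G66140), one of the genes for α4, stood at 257, 232 and 270 normalized reads in WT and at 483, 388 and 561 in Type IV. All Type IV libraries lay above all WT libraries, with a log2 fold change of 0.90 ± 0.13 (SE; limma, adjusted p = 0.000201). AT5G66130, which overlaps PAD2 on the opposite strand, rose by 1.43 (limma, adjusted p = 0.000863), and its part in the PAD2 value was not tested. In Type III PAD2 had 0.35 ± 0.13 (limma, adjusted p = 0.0365), a call that was lost without WT replicate 1 or 2 or without any 1 Type III library (adjusted p up to 0.125).

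PAE2 (AT3G14290), a gene for α5 on chromosome 3, had 524, 476 and 517 normalized reads in WT, 889, 871 and 906 in Type III and 728, 678 and 717 in Type IV. The 3 groups did not overlap, and Type III was the highest. Its log2 fold change was 0.81 ± 0.079 in Type III (limma, adjusted p = 1.73e-06), against a median of 0.56 for its 40 tested neighbours (20 on each side, members left out), and 0.48 ± 0.079 in Type IV (limma, adjusted p = 0.000475), where the neighbours stood at 0.15. PAC1 (α3) and PAD1 (α4), also on chromosome 3, rose by 0.50 ± 0.079 and 0.55 ± 0.11 in Type III (limma, adjusted p = 0.000129 and 0.0008), beside neighbour medians of 0.27 and 0.49. In Type IV PAC1 was at 0.08 and was not called, while PAD1 rose by 0.51 ± 0.11 (limma, adjusted p = 0.00295). The other alpha genes called higher in Type IV were PAA2, PAB1, PAB2, PAE1, PAF1 and PAF2, at 0.35 to 0.52. PAF2 lost its call without WT replicate 3 or Type IV replicate 3 (limma, adjusted p = 0.0613 and 0.063).

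In Type II the alpha genes called were PAA2 (α1) and PAG1, the only gene for α7, both on chromosome 2. PAA2 (AT2G05840) stood at 635, 612 and 566 normalized reads in WT and 937, 860 and 880 in Type II. PAG1 (AT2G27020) stood at 795, 816 and 656 in WT and 1141, 1183 and 1070 in Type II. Neither pair of groups overlapped. PAA2 rose by 0.56 ± 0.10 and PAG1 by 0.59 ± 0.12 on the log2 scale (limma, adjusted p = 0.00269 and 0.00448), beside neighbour medians of 0.51 and 0.50. The 11 alpha genes off chromosome 2 had a median of −0.16 in Type II with none called.

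Of the 10 tested beta genes, 5 were higher and 1 lower in Type IV, and 6 were higher in Type III. Of all tested loci, 16% were called higher in Type IV and 24% in Type III. In Type III all 4 beta genes on chromosome 3 were higher, where 56.4% of the other genes were too. Off chromosome 3, 2 of 6 beta genes were higher. PBB2 (AT5G40580), one of the genes for the trypsin-like subunit β2, stood at 410, 406 and 421 normalized reads in WT and 678, 597 and 699 in Type IV. Every Type IV library exceeded every WT library, and the log2 fold change was 0.67 ± 0.091 (limma, adjusted p = 0.000124). In Type III PBB2 had 490, 472 and 511 normalized reads and a fold change of 0.25 ± 0.091 (limma, adjusted p = 0.0339), which lost its call without any 1 of the WT libraries or without Type III replicate 1 or 3 (adjusted p up to 0.104). AT5G40570 overlaps PBB2 on the opposite strand and had 0.83 in Type IV without a call.

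PBC1 (AT1G21720), a gene for β3, stood at 630, 584 and 557 normalized reads in WT, 703, 743 and 726 in Type III and 812, 811 and 818 in Type IV. The groups were ordered WT, Type III, Type IV with no overlap. PBC1 rose by 0.30 ± 0.075 in Type III and 0.46 ± 0.075 in Type IV (limma, adjusted p = 0.00494 and 0.000449). PBE1, a gene for the chymotrypsin-like subunit β5, and PBD1 (β4) rose by 0.37 and 0.42 in Type IV, as did PBE2 (β5) by 0.31. PBD1 lost its call there without WT replicate 3 or Type IV replicate 3 (limma, adjusted p = 0.0685 and 0.0776), and PBE2 without any 1 of 11 libraries (adjusted p up to 0.182).

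On chromosome 3, PBF1 (AT3G60820, β6) stood at 1014, 974 and 1006 normalized reads in WT and 1436, 1490 and 1456 in Type III. Its libraries did not overlap, and it rose by 0.55 ± 0.076 (limma, adjusted p = 3.87e-05) beside a neighbour median of 0.45. The overlapping AT3G60810 on the opposite strand rose by 1.17 (limma, adjusted p = 4.46e-07), and its part in the PBF1 value was not tested. PBA1 (AT4G31300, β1), on chromosome 4, went the other way in Type IV, with 1193, 1261 and 1241 normalized reads in WT and 963, 908 and 1159 in Type IV. Replicate 3 lay closest to WT, yet the groups did not overlap, and PBA1 fell by 0.29 ± 0.10 (limma, adjusted p = 0.0391) beside a neighbour median of −0.33. This call was lost without WT replicate 2 or 3 or Type IV replicate 1 or 2 (adjusted p up to 0.153).

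Of the 11 genes for RPT ATPases, 7 were higher in Type IV and 5 in Type III, and none was lower in either. Of all tested loci, 16% were called higher in Type IV and 24% in Type III, and 17% and 23.6% lower. Off the shifted chromosome, 7 of 10 RPT genes were higher in Type IV and 4 of 10 in Type III. RPT5b (AT1G09100, chr1:2936528-2939363 in TAIR10.1, minus strand) stood at 218, 226 and 232 normalized reads in WT, 346, 323 and 375 in Type III and 478, 402 and 438 in Type IV. All mutant libraries of both types lay above WT, and Type IV lay above Type III throughout. The fold changes were 0.62 ± 0.11 in Type III and 0.96 ± 0.11 in Type IV (limma, adjusted p = 0.000253 and 2.82e-05), beside neighbour medians of −0.03 and 0.21.

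RPT6a (AT5G19990) and RPT6b (AT5G20000) lie next to each other on chromosome 5, at chr5:6751798-6755315 and chr5:6756633-6759800 in TAIR10.1 on the plus strand. RPT6b stood at 420, 373 and 354 normalized reads in WT, 335, 323 and 321 in Type I, 328, 320 and 334 in Type II, 621, 712 and 549 in Type III and 779, 691 and 718 in Type IV. RPT6a stood at 829, 798 and 814 in WT, 736, 702 and 762 in Type III and 912, 886 and 767 in Type IV. RPT6b thus separated Types III and IV from WT without overlap, while RPT6a in Type IV overlapped WT and in Type III lay below it without a call. RPT6b rose by 0.71 ± 0.098 in Type III and 0.93 ± 0.098 in Type IV (limma, adjusted p = 3.95e-05 and 2.03e-05), whereas RPT6a had −0.15 ± 0.087 and 0.07 ± 0.087 (limma, adjusted p = 0.171 and 0.584). The neighbours of the pair had medians of −0.26 and −0.17. The coding sequences of these genes are 94.4% identical, with an unbroken match of 104 bases, so how the authors' counting shared reads between them is uncertain.

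RPT3 (AT5G58290), the only gene for its subunit, stood at 1043, 839 and 814 normalized reads in WT, 1230, 1301 and 1337 in Type III and 1699, 1516 and 1719 in Type IV. RPT1b (AT1G53780, chr1:20073989-20079022, minus strand) stood at 621, 597 and 664 in WT, 784, 857 and 818 in Type II, 1030, 970 and 1032 in Type III and 1202, 1041 and 1043 in Type IV. For both genes the Type III and Type IV libraries lay above every WT library, and for RPT1b those of Type II did so too. RPT3 rose by 0.53 ± 0.10 and 0.88 ± 0.10 in Types III and IV (limma, adjusted p = 0.00058 and 3.35e-05). RPT1b rose by 0.39 ± 0.080, 0.69 ± 0.080 and 0.80 ± 0.080 in Types II, III and IV (limma, adjusted p = 0.00523, 8.55e-06 and 1.32e-05). RPT1b was the only member off chromosome 2 called higher in Type II against WT, and that call held under each of the 26 alternatives run. In Type II against Type I it was not called. AT5G58300, which overlaps RPT3 on the same strand, fell in both types, by 0.32 and 0.34 (limma, adjusted p = 0.0416 and 0.0441).

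RPT5a (AT3G05530), the more abundant RPT5 gene and on chromosome 3, stood at 1369, 1446 and 1527 normalized reads in WT, 2419, 2412 and 2735 in Type III and 1980, 1868 and 1986 in Type IV. Type III was highest, Type IV intermediate and WT lowest, with no overlap. It rose by 0.80 ± 0.076 and 0.43 ± 0.076 (limma, adjusted p = 1.37e-06 and 0.000803), beside neighbour medians of 0.42 and 0.06. RPT4a and RPT4b were called higher in Type IV at 0.39 and 0.24, each with loss of the call without WT replicate 3 (limma, adjusted p = 0.0595 and 0.0795) and without Type IV replicate 3 or 1 respectively (adjusted p = 0.0539 and 0.0739). RPT2a (chromosome 4) and RPT2b (chromosome 2) were not called against WT in any type.

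Of the 18 tested RPN genes, 5 were higher and 4 lower in Type IV, beside 16% and 17% of all tested loci. On chromosome 4, 3 of 4 RPN genes were lower, where 48.9% of the other genes were too. Off it 5 of 14 were higher and 1 was lower. The 18 genes had a median log2 fold change of 0.04, against medians of 0.40, 0.27 and 0.39 for alpha, beta and RPT genes. The 5 higher genes were RPN5a, RPN12a and RPN11 of the lid, the scaffold gene RPN2b, and RPN8b, which encodes the partner of RPN11, the deubiquitylase that removes ubiquitin from substrates. RPN5a (AT5G09900) stood at 1038, 1037 and 1012 normalized reads in WT and 1534, 1347 and 1363 in Type IV, above WT in every library, and rose by 0.46 ± 0.090 (limma, adjusted p = 0.00164). RPN11 rose by 0.28 ± 0.082 (limma, adjusted p = 0.0176), which was lost without WT replicate 2 or 3 or Type IV replicate 1 (adjusted p up to 0.08).

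RPN1b (AT4G28470), a gene for the scaffold that docks ubiquitin shuttles, lies on chromosome 4 and stood at 589, 627 and 544 normalized reads in WT and 410, 370 and 521 in Type IV. Type IV lay below WT in all libraries, replicate 3 being nearest, with a fold change of −0.45 ± 0.11 (limma, adjusted p = 0.00815) beside a neighbour median of −0.47. The lid genes RPN7 and RPN9b, on the same chromosome, fell by 0.28 and 0.37 (limma, adjusted p = 0.0351 and 0.0218), beside neighbour medians of −0.43 and −0.45. For RPN7 the groups touched, since replicate 3 of Type IV had 1040 normalized reads and the lowest WT library 1039. Both calls were lost without WT replicate 1 or 2 or Type IV replicate 1 or 2 (adjusted p up to 0.152 for RPN7 and 0.0946 for RPN9b), and that of RPN7 also without WT replicate 3. RPN2a, on chromosome 2, was the only member off chromosome 4 called lower in Type IV, at −0.22 ± 0.072 (limma, adjusted p = 0.0315), and this call was lost without WT replicate 2 or 3 or Type IV replicate 1 or 3 (adjusted p up to 0.10). The other genes of chromosome 2 had a median of −0.11 in Type IV.

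RPN8b (AT3G11270), on chromosome 3, stood at 142, 156 and 117 normalized reads in WT, 200, 214 and 205 in Type III and 197, 184 and 178 in Type IV. Both mutant types lay above WT without overlap. It rose by 0.58 ± 0.11 and 0.44 ± 0.11 (limma, adjusted p = 0.000522 and 0.00711), beside neighbour medians of 0.47 and 0.09. With each library centred per chromosome, the Type III value was 0.11 (limma, adjusted p = 0.444). RPN10, which encodes a ubiquitin receptor, was higher in Type III by 0.27 ± 0.087 (limma, adjusted p = 0.0177), a call lost without Type III replicate 2 or 3 (adjusted p = 0.06 and 0.0734). RPN3b, RPN8a and RPN9a were lower in Type III by 0.39, 0.29 and 0.24 (limma, adjusted p = 0.034, 0.0156 and 0.041). The RPN3b call was lost without WT replicate 1 or any 1 Type III library, that of RPN8a without WT replicate 2 or Type III replicate 2, and that of RPN9a without any 1 WT library or Type III replicate 1 or 3 (limma, adjusted p up to 0.138, 0.0886 and 0.13).

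In Type II the RPN genes called higher were RPN1a, RPN2a and RPN13, all on chromosome 2. RPN1a (AT2G20580) stood at 1375, 1412 and 1369 normalized reads in WT and 2124, 1918 and 1784 in Type II. RPN2a (AT2G32730) stood at 1451, 1506 and 1504 in WT and 2069, 1955 and 1754 in Type II. RPN13 (AT2G26590), a gene for a ubiquitin receptor, stood at 317, 298 and 317 in WT and 370, 429 and 414 in Type II. All 3 were apart from WT, with fold changes of 0.48 ± 0.076, 0.37 ± 0.072 and 0.38 ± 0.088 (limma, adjusted p = 0.000975, 0.00352 and 0.0101), beside neighbour medians of 0.49, 0.50 and 0.49. RPN6, a lid gene on chromosome 1, was the 1 lower member at −0.23 ± 0.071 (limma, adjusted p = 0.0458). Its call was lost without any 1 of 12 libraries (adjusted p up to 0.139), namely the 3 of WT, the 3 of Type III and replicates 1 and 2 of Type I, 2 and 3 of Type II and 1 and 2 of Type IV.

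Sequences upstream of 4 members with large rises or a shifted paralog balance are shown because plant proteasome genes are known to share a promoter element with the core TGGGC, recognised by the NAC53 and NAC78 regulators. Each window runs from 250 bases before to 50 after the annotated gene start in RefSeq's TAIR10.1, printed 5′ to 3′ on the gene's strand, and capitals mark TGGGC or its reverse complement GCCCA.
RPT3 (chr5:23568802-23569101, plus strand): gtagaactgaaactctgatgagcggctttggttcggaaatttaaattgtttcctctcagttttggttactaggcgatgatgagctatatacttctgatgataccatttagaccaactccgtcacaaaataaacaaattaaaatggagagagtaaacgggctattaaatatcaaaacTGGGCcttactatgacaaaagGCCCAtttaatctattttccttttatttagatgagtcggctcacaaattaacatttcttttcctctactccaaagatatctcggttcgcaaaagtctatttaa
PAD2 (chr5:26438722-26439021, minus strand): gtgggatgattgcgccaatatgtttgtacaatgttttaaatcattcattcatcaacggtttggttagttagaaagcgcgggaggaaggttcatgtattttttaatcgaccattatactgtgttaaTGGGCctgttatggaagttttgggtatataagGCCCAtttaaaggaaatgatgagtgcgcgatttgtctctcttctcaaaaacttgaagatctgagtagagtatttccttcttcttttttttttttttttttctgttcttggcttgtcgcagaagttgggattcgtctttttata
RPT6a (chr5:6751548-6751847, plus strand): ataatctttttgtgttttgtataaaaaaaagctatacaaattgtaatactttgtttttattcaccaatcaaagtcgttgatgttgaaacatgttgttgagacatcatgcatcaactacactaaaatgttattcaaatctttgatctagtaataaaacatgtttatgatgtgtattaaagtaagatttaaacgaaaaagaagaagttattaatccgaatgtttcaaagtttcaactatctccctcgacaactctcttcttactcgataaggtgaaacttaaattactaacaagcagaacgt
RPT6b (chr5:6756383-6756682, plus strand): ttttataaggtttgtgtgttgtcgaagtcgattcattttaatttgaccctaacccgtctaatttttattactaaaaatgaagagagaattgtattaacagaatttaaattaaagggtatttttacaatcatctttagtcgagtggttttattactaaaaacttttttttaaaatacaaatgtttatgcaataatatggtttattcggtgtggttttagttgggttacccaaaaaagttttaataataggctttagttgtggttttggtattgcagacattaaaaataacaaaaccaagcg

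RPT3 and PAD2 each hold 1 match on either strand, at −74 and −53 and at −125 and −93 from the start, and neither RPT6 gene holds these letters in its window. On both strands together TGGGC occurred in 33 of the 54 member promoters (61.1%), against 26% of the 27443 protein-coding genes and 30.8% of the tested ones; these 5 letters are also the start of the TGGGCC form of the site II element. Of the tested members 32 had a match and 20 had none. In Type IV 50% of each set was called higher, with median log2 fold changes of 0.34 with a match and 0.26 without. In Type III 40.6% of those with a match and 20% of those without were called higher, with medians of 0.17 and 0.08. In Type II the shares were 6.25% and 20%. These shares move with the shifted chromosome: 7 of the 9 members on chromosome 3 had a match, and the 4 higher members of Type II without a match all lie on chromosome 2. Off chromosome 3, 6 of 25 members with a match and 2 of 18 without were higher in Type III, with medians of 0.007 and 0.04.

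Members on and off the shifted chromosome of each type were set apart to compare the balance of subunit transcripts. In Type II 5 of 6 members on chromosome 2 were higher, with a median of 0.43, where 51.3% of the other genes of that chromosome were called higher and their median was 0.50. Off chromosome 2, 1 of 46 was higher and 1 lower, with a median of −0.14, beside −0.07 for all genes there, of which 2.73% were called higher and 5.18% lower. In Type III all 9 members on chromosome 3 were higher, with a median of 0.55 beside 0.48 and 56.4% for the other genes of that chromosome. Of the 43 members elsewhere 8 were higher and 3 lower, where 15.9% and 28.1% of all genes were called, and their median was 0.007, beside −0.11.

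In Type IV the median of the members on chromosome 4 and that of members elsewhere differed in direction. Above 0 lay 3 of the 8 members on chromosome 4 and 39 of the 44 elsewhere. None of the 8 members on chromosome 4 was higher and 4 were lower (PBA1, RPN1b, RPN7 and RPN9b), with a median of −0.22 beside −0.41 for the other genes of the chromosome, 48.9% of which were called lower. Of 44 members elsewhere 26 were higher and 1 was lower, with a median of 0.36, where 18.3% of all genes were called higher, 11.4% lower and the median was 0.06. The rise was seen on chromosomes 1, 3 and 5, with 11 of 16, 6 of 9 and 8 of 13 members higher and medians of 0.37, 0.42 and 0.39, beside medians of 0.08, 0.11 and 0.09 for the other genes there. On chromosome 2 the 6 members had a median of 0.04, with PAA2 higher and RPN2a lower. Among the members off chromosome 4, 14 of 20 core genes and 12 of 24 regulatory particle genes were higher.

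The difference between the medians on and off the shifted chromosome fitted over the groups was 0.57 for Type II, 0.55 for Type III and −0.58 for Type IV. The 3 libraries had 0.65, 0.56 and 0.57 for Type II, then 0.49, 0.51 and 0.50 for Type III, and −0.67, −0.65 and −0.32 for Type IV. All libraries of a type shared the sign. In Type IV replicate 3 the chromosome 4 members had a median of 0.06, against −0.33 and −0.38 in replicates 1 and 2, while its members on chromosomes 1, 3 and 5 stood at 0.39, 0.37 and 0.41, against 0.30 to 0.37 in the other libraries. Without it the Type IV difference was −0.68. With each library centred per chromosome the differences were 0.003, −0.04 and −0.08.

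**Figure D2:**
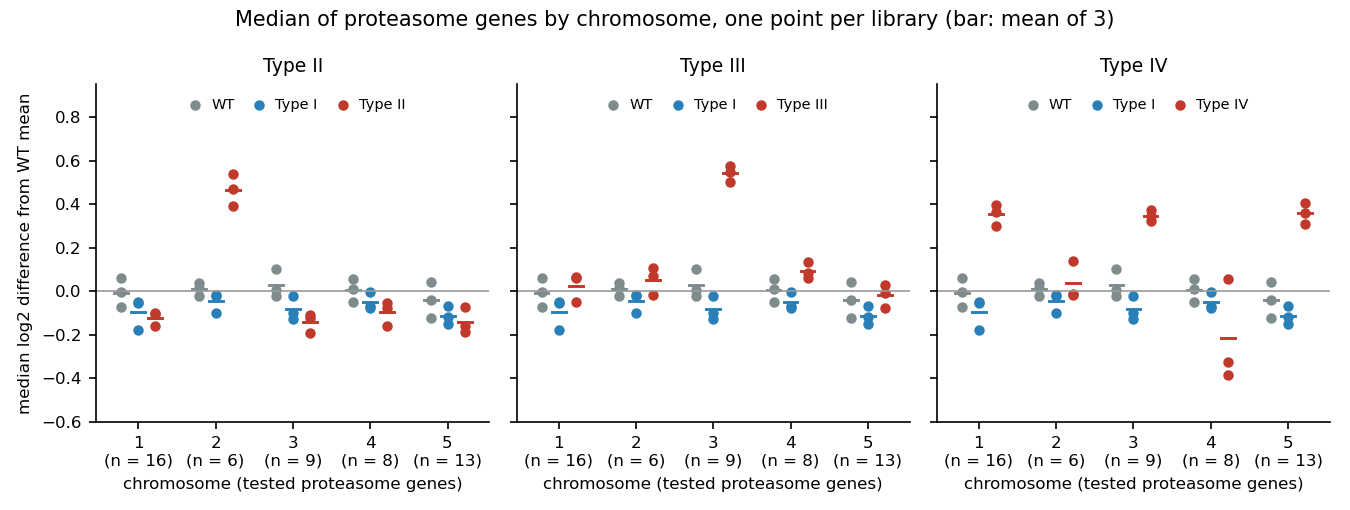
Median log2 difference from the WT mean of the tested proteasome genes on each chromosome, one point per library and a bar for the mean of 3, for WT, Type I and the type named above each panel. Type II libraries are high on chromosome 2 and Type III libraries on chromosome 3; Type IV libraries are high on chromosomes 1, 3 and 5, and on chromosome 4 its replicates 1 and 2 are low while replicate 3 lies at 0.06.

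Off chromosome 3, the members called higher in Type III were RPT1b, RPT5b, RPT6b, RPT3, PAD2, PBB2, PBC1 and RPN10. Types III and IV were compared with the same WT libraries. Side by side, the fold changes in Type III and Type IV were 0.69 and 0.80 for RPT1b and 0.62 and 0.96 for RPT5b. They were 0.71 and 0.93 for RPT6b, 0.53 and 0.88 for RPT3, and 0.35 and 0.90 for PAD2. PBB2 had 0.25 and 0.67, and PBC1 had 0.30 and 0.46. RPN10, on chromosome 4, had 0.27 and 0.03 and was not called in Type IV.

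The mutant types were also set against Type I, which shares the mutation and looked like WT. In Type IV 30 of 52 members were higher and 2 lower, against backgrounds of 12.7% and 15.1%. In Type III 20 were higher and none lower, against 21.3% and 20.3%, where 0 had an unadjusted p under 0.05 for a fall, edgeR and DESeq2 also called 0 lower, and limma called 1 without Type III replicate 3. In Type II 6 were higher and 1 lower, against 9.45% and 4.81%, and scaling to library totals gave 7 higher and 0 lower. The 6 were PAA2, RPN1a, RPN2a, RPN13, PAG1 and RPT2b, all on chromosome 2, and RPT1b was not called. The largest fold changes in Type IV were those of RPT6b at 1.16 and RPT5b at 0.85. RPN1b and RPN2a were the 2 lower members of Type IV, and RPN10 was the lower member of Type II, a call lost without Type I replicate 2 or 3 or Type II replicate 2 or 3 (limma, adjusted p up to 0.126). RPN2a lost its call without any 1 of 12 libraries (adjusted p up to 0.129), and without Type IV replicate 3 the lower members numbered 4.

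Paralog pairs split by chromosome showed how far the transcript shares of paired genes moved. Shares were computed per kb of exon within a pair. In WT, PAA2 (chromosome 2) made up 36.2% ± 0.70 (SD, n = 3) of the α1 pair, with the rest from PAA1 on chromosome 5. In Type II it made up 48.4% ± 0.64, from 47.7% to 48.8% against 35.5% to 36.9% in WT. RPN1a and RPN2a (chromosome 2) rose from 71.3% ± 1.2 to 77.6% ± 0.27 and from 69.5% ± 1.1 to 75.9% ± 1.4 of their pairs, and RPT2b from 32% ± 1.9 to 38.9% ± 2.0. No library of Type II overlapped WT in these 4 pairs.

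In Type III the pairs with a chromosome 3 member moved by different amounts. PAE2 went from 60.3% ± 1.5 of the α5 pair in WT to 70.4% ± 1.0, and RPN8b from 14.2% ± 1.1 of the RPN8 pair to 23.4% ± 2.6, both without overlap. PBB1, by contrast, had 64.9% ± 1.3 and 65.7% ± 2.0 of the β2 pair, where its partner PBB2 on chromosome 5 was also called higher. RPT5a had 85.2% ± 0.28 in WT and 86.6% ± 0.39 in Type III, where its partner RPT5b on chromosome 1 rose too. PAD1 had 71.6% ± 1.8 and 74.3% ± 1.5, PBD1 60.1% ± 4.3 and 64.9% ± 3.3, PBE2 19.8% ± 3.0 and 21.9% ± 1.2 of their pairs, and these groups overlapped. PAC1 held 98.3% ± 0.46 and 98.1% ± 0.54 of the α3 pair.

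In Type IV, of the 5 pairs with a chromosome 4 member, only that of RPN1 moved without overlap: RPN1b had 28.7% ± 1.2 of it in WT and 22.4% ± 2.0 in Type IV. For RPN9b the shares were 49.9% ± 1.9 and 46.6% ± 1.7, for PBD2 39.9% ± 4.3 and 35.7% ± 1.8 and for RPT2a 68.0% ± 1.9 and 67.0% ± 2.2, and these overlapped. PAC2, at 1.65% ± 0.46 and 2.07% ± 0.24 of the α3 pair, also overlapped. Several pairs without a chromosome 4 member moved as well. PBB2 rose from 35.1% ± 1.3 of the β2 pair to 47.9% ± 2.8 and RPN2b from 30.5% ± 1.1 of the RPN2 pair to 41.5% ± 3.2, both without overlap.

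The RPT6 and RPT1 pairs lie each on 1 chromosome. RPT6b made up 38.9% ± 1.8 of the RPT6 pair in WT, 37.0% ± 2.2 in Type I and 37.7% ± 1.8 in Type II. Its share was 53.5% ± 4.2 (Type III) and 53.7% ± 2.3 (Type IV). Libraries of these last groups (49.4% to 57.9%) did not overlap those of the other groups (34.5% to 40.7%). RPT1b made up 20.2% ± 2.2 of the RPT1 pair (WT), 23.0% ± 1.8 (Type I), 26.3% ± 2.3 (Type II), 31.0% ± 1.8 (Type III) and 27.5% ± 2.6 (Type IV), and Types II, III and IV lay above WT without overlap. PAB1 and PAB2, both on chromosome 1, stayed near equal, with PAB1 at 50.6% ± 0.70 in WT and 48.4% ± 3.6 to 51.5% ± 2.9 in the mutant types.

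**Figure D3:**
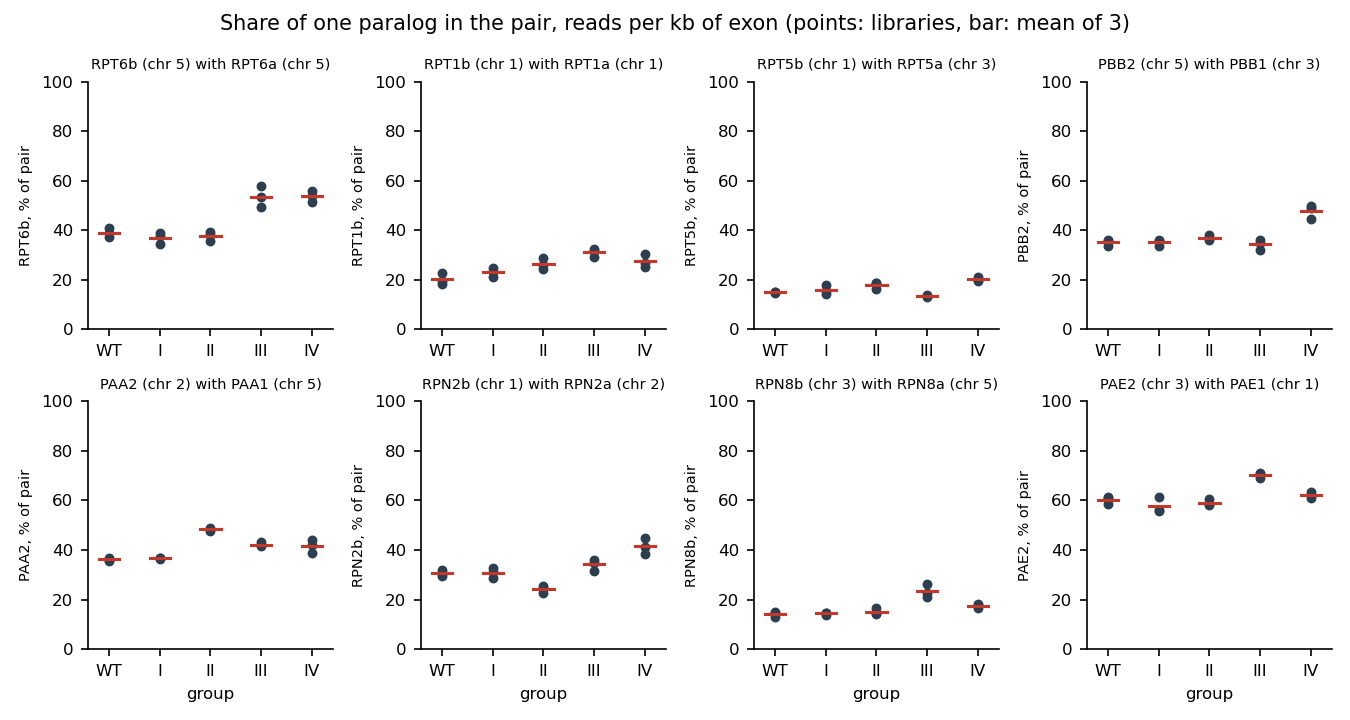
Share of one paralog in its pair, in percent of the summed normalized reads per kb of exon, for 8 pairs in WT and Types I to IV; points are libraries and bars the mean of 3. RPT6b lies between 49.4% and 57.9% in Types III and IV and between 34.5% and 40.7% in WT, Type I and Type II, and PAA2 is highest in Type II.

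Summing paralogs per kb gave a total for each of the 32 subunits. In WT these totals ran from 161 ± 5.52 (SD, n = 3) normalized reads per kb for RPN13 to 1072 ± 57.4 for α1. The log2 ratios to WT had an SD over the 32 subunits of 0.092 (Type I), 0.20 (Type II), 0.26 (Type III) and 0.27 (Type IV). In Type IV 27 of 32 totals lay above WT, with a median log2 ratio of 0.25. The highest was RPT3, a single gene, at 0.88 ± 0.10 (SD, n = 3), followed by α4 at 0.63 ± 0.24 and RPT5 at 0.52 ± 0.063. The lowest were β1 at −0.29 ± 0.18, RPN7 at −0.28 ± 0.21, RPN9 at −0.27 ± 0.079 and RPT2 at −0.14 ± 0.28, each with at least 1 gene on chromosome 4.

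In Type III the totals ran from −0.29 ± 0.0083 for RPN3 to 0.78 ± 0.10 for RPT5, and α3, α4, α5 and β6, each with a gene on chromosome 3, stood at 0.50 to 0.59, as did RPT3 of chromosome 5 at 0.53. In Type II the highest totals were α7 at 0.59 ± 0.073, RPN13 at 0.38 ± 0.11, RPN1 at 0.36 ± 0.13 and RPN2 at 0.24 ± 0.11, all with a gene on chromosome 2. For the subunits with a single gene the total followed that gene: PAG1 and RPN13 in Type II, PBF1 in Type III, PBA1 and RPN7 in Type IV. Subunits with 1 of 2 genes on the shifted chromosome moved less in several cases, such as α1 at 0.14 ± 0.055 in Type II and RPN1 at −0.089 ± 0.13 in Type IV. These totals are transcript levels. Protein amounts were not measured in the data used here.

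**Figure D4:**
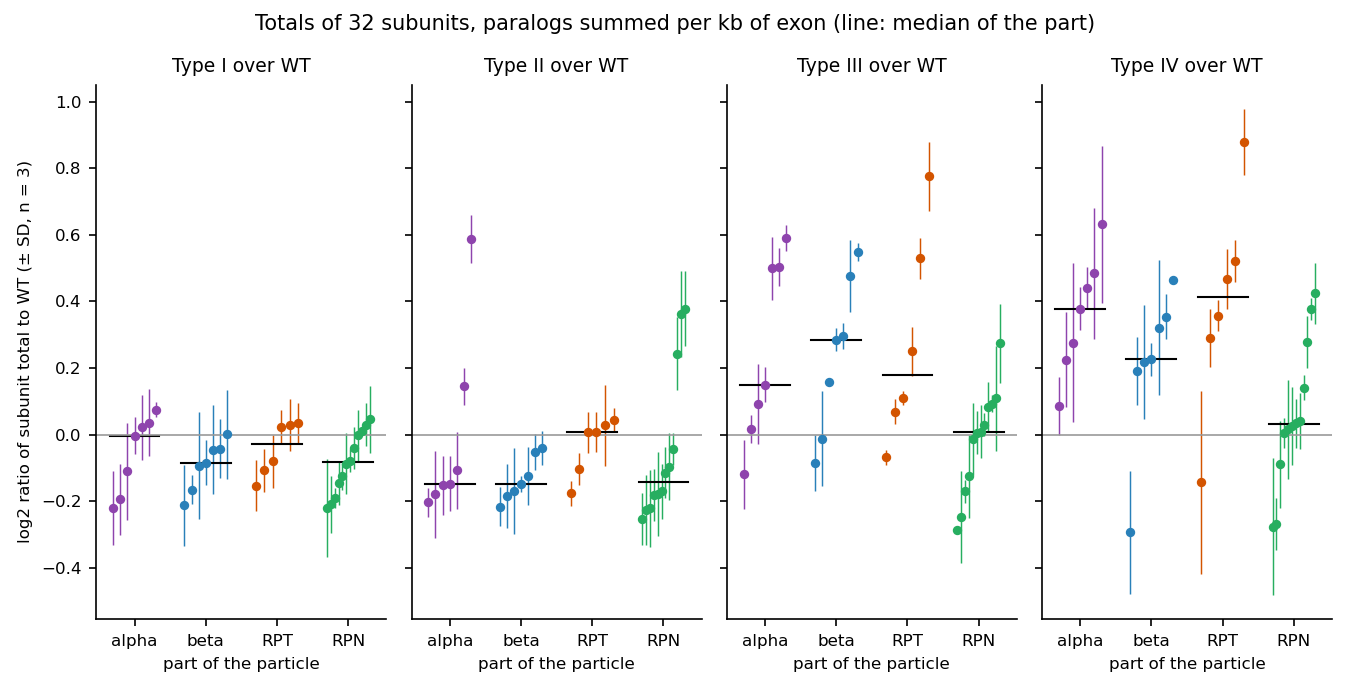
Log2 ratio of each subunit's total to WT (paralogs summed per kb of exon) in Types I to IV, grouped as alpha, beta, RPT and RPN; points are means with SD over 3 libraries and lines the medians of each part. The range is narrowest in Type I, and in Type IV 27 of 32 points lie above 0, with RPT3 at 0.88 and β1 at −0.29.

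Other genes that act with the proteasome were taken from a list of 43, of which 39 were in the table and tested. Of these, 8 were higher and 1 lower in Type II, 9 and 3 in Type III and 12 and 2 in Type IV. As shares, 20.5%, 23.1% and 30.8% of the 39 were higher in Types II, III and IV, beside 10.2%, 24% and 16% of all tested loci, and 2.56%, 7.69% and 5.13% were lower, beside 4.38%, 23.6% and 17%. On the shifted chromosome lay 6 of the 8 higher genes of Type II and 6 of the 9 of Type III. CDC48 unfolds ubiquitylated proteins before degradation. All 4 tested genes of CDC48 and its cofactors were higher in Type IV and 3 of 4 in Type III. The 3 of Type III, namely CDC48A, CDC48B and NPL4B, all lie on its shifted chromosome 3, where 56.4% of the other genes were called higher. CDC48A stood at 4367, 3810 and 3871 normalized reads in WT, 8160, 8124 and 9041 in Type III and 6654, 6031 and 6607 in Type IV, with no overlap. It rose by 1.07 ± 0.084 and 0.68 ± 0.084 (limma, adjusted p = 2.44e-07 and 6.17e-05), beside neighbour medians of 0.44 and 0.15. CDC48B rose by 1.24 in Type III and 1.68 in Type IV (limma, adjusted p = 0.000253 and 6.92e-05), beside neighbour medians of 0.42 and 0.08.

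Among caps and assembly factors, 4 of 6 were higher in Type IV and 2 of 6 in Type III, beside 16% and 24% of all tested loci. Off chromosome 3, 1 of 4 was higher in Type III. PTRE1, a proteasome regulator on chromosome 3, stood at 241, 257 and 213 normalized reads in WT, 430, 430 and 438 in Type III and 357, 350 and 364 in Type IV. It rose by 0.87 and 0.59 (limma, adjusted p = 4.66e-06 and 0.0004), beside neighbour medians of 0.30 and 0.09. The other 3 higher in Type IV were the assembly factor UMP1A and the lid-associated DSS1I and DSS1V, at 0.63, 0.48 and 0.64. ECM29, which ties the core to its cap in yeast, was higher in Type II at 0.53 (limma, adjusted p = 0.000657) and lies on chromosome 2, as do UFD1B, DSK2B and CSN2 at 0.66, 0.52 and 0.33.

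NAC53 and NAC78 encode the transcription factors known to activate proteasome genes in Arabidopsis; NAC53 is named here after its values were seen. NAC53 stood at 180, 71.8 and 87.8 normalized reads in WT and 247, 147 and 254 in Type IV, which overlapped through WT replicate 1. NAC53 lies on chromosome 3. Its log2 fold change was 1.00 ± 0.30 in Type IV (limma, adjusted p = 0.0179), beside a neighbour median of 0.25. In Type III it was 0.32 without a call, below a neighbour median of 0.53. NAC78 had 0.21 in Type IV and was not called in any type.

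Of 5 polyubiquitin genes UBQ3 and UBQ4 (40%) were higher in Types II, III and IV, beside 10.2%, 24% and 16% of all tested loci. UBQ3 stood at 2067, 1395 and 1569 normalized reads in WT, 4048, 4330 and 4169 in Type III and 3865, 3530 and 3137 in Type IV, well apart from WT, and rose by 1.34 and 1.08 (limma, adjusted p = 5.18e-06 and 0.000124). Of 7 ubiquitin shuttle genes RAD23C, on chromosome 3, rose by 1.26 in Type III and 0.55 in Type IV (limma, adjusted p = 5.65e-07 and 0.00163), beside neighbour medians of 0.46 and 0.07. UBA1, a gene for the ubiquitin-activating enzyme on chromosome 2, was higher in Type II at 0.38 and lower in Type IV at −0.40 (limma, adjusted p = 0.0372 and 0.0134).

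The COP9 signalosome, a complex built much like the proteasome lid, gave a set of 9 tested genes. In Types III and IV 2 and 1 of them were lower (22.2% and 11.1%, beside 23.6% and 17% of all tested loci). CSN7 and CSN5A were lower in Type III at −0.38 and −0.35 (limma, adjusted p = 0.00175 and 0.00567), and CSN6B, on chromosome 4, was lower in Type IV at −0.62 (limma, adjusted p = 0.00451). In Type II CSN2 was higher and CSN5A lower at −0.30 (limma, adjusted p = 0.0422). The 9 genes had a median log2 fold change of −0.09 and 0.02 in Types III and IV, beside 0.13 and 0.28 for the 52 proteasome genes. No tested gene of this complex lies on chromosome 3, and the proteasome genes off that chromosome had a median of 0.007 in Type III, beside −0.11 for all genes there. Off chromosome 4 the medians in Type IV were 0.07 for the 7 COP9 signalosome genes and 0.36 for the 44 proteasome genes.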

How the data were processed

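Total RNA from leaves was sequenced in 15 libraries, made with a TruSeq kit that marks no strand per the labels' protocols. The submitters' processing notes name TAIR10 and, without roles, DESeq2 1.12.4, HTSeq 0.6.0, STAR 2.4.0j and StringTie 1.0.3. The deposited values, a signal per locus, are read counts divided by a size factor: each library's values are multiples of a single step (tolerance 1e-06), from which whole reads were recovered. Loci without an AGI code (260) held 0.136% of reads. Of 32580 AGI codes 31881 matched RefSeq's TAIR10.1 annotation, which gave coordinates, exon lengths, neighbours and promoters.

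Differences were tested on the scale log2(normalized count + 1) by limma 3.58.1 (R 4.3.3, trend in the prior variance), so fold changes of low genes are understated. All 15 libraries entered 1 fit of 17595 loci with a mean of at least 10, and adjusted p covers all of these loci. The named members are, in each type, up to 10 higher and 10 lower with the smallest adjusted p against WT, those under the minimum, and pairs with a member on the shifted chromosome; of the pathway list, up to 4 in each direction. Values of further members were added where a count turned on them. The members, lists and alternatives were chosen with earlier results of these data known. Alternatives were edgeR 4.0.16 and DESeq2 1.42.0 on recovered reads, other pseudocounts, filters, scalings and thresholds, centring per chromosome, fits restricted to the groups compared, and removal of single libraries. Simulated counts with known changes served to test the fitting step. Sequences of promoters are from RefSeq. Identity of coding sequences came from a global alignment with biopython 1.88.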

Additional observations from a re-analysis of the deposited data

How the results depend on the processing

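Of the 31 members called in Type IV against WT, 18 were called under every alternative and 21 without each library in turn. For Type III these were 6 and 13 of 20, and for Type II 1 (RPT1b) and 6 of 7. The counts of higher members stayed within 1.5 times the reported ones under all alternatives except centring each library per chromosome, which left 1 in Type II against WT and 0 against Type I.

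Lower members moved more. In Type II against WT, 0 were lower with edgeR, with no filter on low values, with scaling to library totals or from chromosomes not shifted in any type, with centring, with only the groups compared in the fit, and at an adjusted p under 0.01; without 1 library they were 0 to 2. In Type III against WT they were 8 with library totals, 0 with the scaling from chromosomes not shifted, with centring and at 0.01, and 1 with only the groups compared; without 1 library 1 to 4. In Type IV against WT they were 1 with library totals, with centring, with only the groups compared and at 0.01; without 1 library 1 to 5. Against Type I, Type II had 2 with a mean of at least 50 and 0 with library totals, the scaling from chromosomes not shifted, centring, only the groups compared and 0.01 (0 to 1 without 1 library), and Type III had 0 to 1 without 1 library. Type IV against Type I had 1 with edgeR, no filter, library totals, only the groups compared and 0.01, 4 with the scaling from chromosomes not shifted and 0 with centring (1 to 4 without 1 library).

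Median log2 fold changes of the members became −0.15 in Type I and 0.035 in Type III with library totals, and −0.056, 0.22 and 0.19 in Types II, III and IV with the scaling from chromosomes not shifted. Centring gave −0.073 in Type II. The difference between members on and off the shifted chromosome became 0.0031, −0.040 and −0.082 in Types II, III and IV with centring, which removes each chromosome's own median, and 0.51 in Type III with no filter (0.45 to 0.60 without 1 library). The sign of single members turned under centring: against WT for RPN1a (−0.017), RPN2a (−0.13) and RPN13 (−0.12) in Type II, PBB1 (−0.17) and PBE2 (−0.16) in Type III, and PBA1 (0.12), RPN9b (0.052) and RPN7 (0.14) in Type IV. Against Type I it turned for RPT2b (−0.072), RPN1a (−0.022), RPN2a (−0.12) and RPN13 (−0.046) in Type II, PBB1 (−0.18) and PAC1 (−0.00917) in Type III, and RPT2a (0.34) and RPN10 (0.39) in Type IV. Scaling to library totals moved the median of all loci by 0.11 and 0.10 for Types II and IV against Type I. No paired analysis was possible because the labels give the groups no shared replicate numbers. Depth limits RPN12b, which lay under the minimum for testing, and PAC2, the lowest tested member per kb. The causes of these changes were not tested.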
